A study of Mus musculus with 9 samples.

Results

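A set of 50 genes of RNA-binding proteins that control splicing in neurons were followed through the depletion of Tdp-43, itself a heterogeneous nuclear ribonucleoprotein (hnRNP) encoded by Tardbp. The members are a list of 14 hnRNP genes and of genes of the CELF, RBFOX, ELAVL, NOVA, PTB, MBNL, STAR, SR, and FET and paraspeckle families, chosen by name. Of the 50 members, 49 were measured among the 16770 genes tested on the array. Rbfox3 is not analysed here, since none of the probe sets used carries its name.

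HnRNPs coat nascent transcripts and mostly hold splice sites back, whereas SR proteins, named for their serine- and arginine-rich tails, mostly promote splice site use. The other families bind short motifs beside exons and, according to whether they bind upstream or downstream, favour skipping or inclusion. Many genes of these families also splice their own transcripts into forms that are kept in the nucleus or degraded, by means of poison exons or slowly removed introns, so that the RNA level of a gene and the use of its exons can move apart.

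The cells were primary cortical neurons from C57BL/6 mouse embryos taken on embryonic day 15, a mixed culture treated with AraC, a drug against dividing cells, after plating. On day 5 they received lentivirus for 4 h that carried a short hairpin RNA, and they were harvested on day 11. The groups were shTdp-43-1 and shTdp-43-2, which carry different hairpins against Tdp-43, and shCont, which carries a control hairpin, with 3 arrays each. All groups share the strain, the AraC step and the virus, and the control arrays are the same 3 in both hairpin comparisons. The series' own design text names motor neurons, while the sample labels name cortical neurons. On the array, 5 of 7 motor neuron markers and 6 of 8 cortical projection neuron markers were tested, with 67.1% and 100% of their named probe sets bright enough to be kept, which does not settle between these names, and the labels were followed. Whether the 3 arrays of a group came from separate cultures is not stated, so p-values measure the spread between these arrays, which may be technical.

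Gene values are mean log2 intensities over the probe sets of a gene, so a difference of 1 is a doubling. Apart from the marker lists, levels are not compared between genes. A gene was called where its adjusted p from limma over all genes tested was under 0.05. Tardbp had log2 values of 7.84, 8.23 and 8.55 in shTdp-43-1 and of 8.22, 8.58 and 7.90 in shTdp-43-2, against 9.77, 9.94 and 10.06 in shCont. Every hairpin array lay below every control array, and the log2 change was -1.72 ± 0.186 with shTdp-43-1 (SE; adjusted p = 0.000349) and -1.69 ± 0.186 with shTdp-43-2 (adjusted p = 0.000109). The r across genes between arrays of the same group was 0.985 to 0.994, and array medians were 8.75 to 8.94.

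The share of splicing regulators called was near that of all genes with either hairpin. With shTdp-43-1, 4 of 49 members were called (8.16%), against 11.1% of all genes, 5.16% higher and 5.96% lower: Hnrnpab and Celf2 rose and Rbfox1 and Khdrbs2 fell. That count was 2 without shTdp-43-1 replicate 2 or 3 and without shCont replicate 1 or 2. With shTdp-43-2, 9 of 49 were called (18.4%), against 21.9% of all genes. Hnrnpab rose, and Hnrnpa1, Hnrnpd, Celf1, Rbfox1, Elavl1, Elavl4, Srsf5 and Srsf10 fell, where 7.76% of all genes rose and 14.1% fell. With each array centred on its median, 5 members rose and 8 fell with shTdp-43-2, where 23.2% of all genes were called. The members had a median log2 change of -0.07 with the first hairpin and of -0.06 with the second, where the medians over all genes were 0.01 and -0.01.

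**Figure D1:**
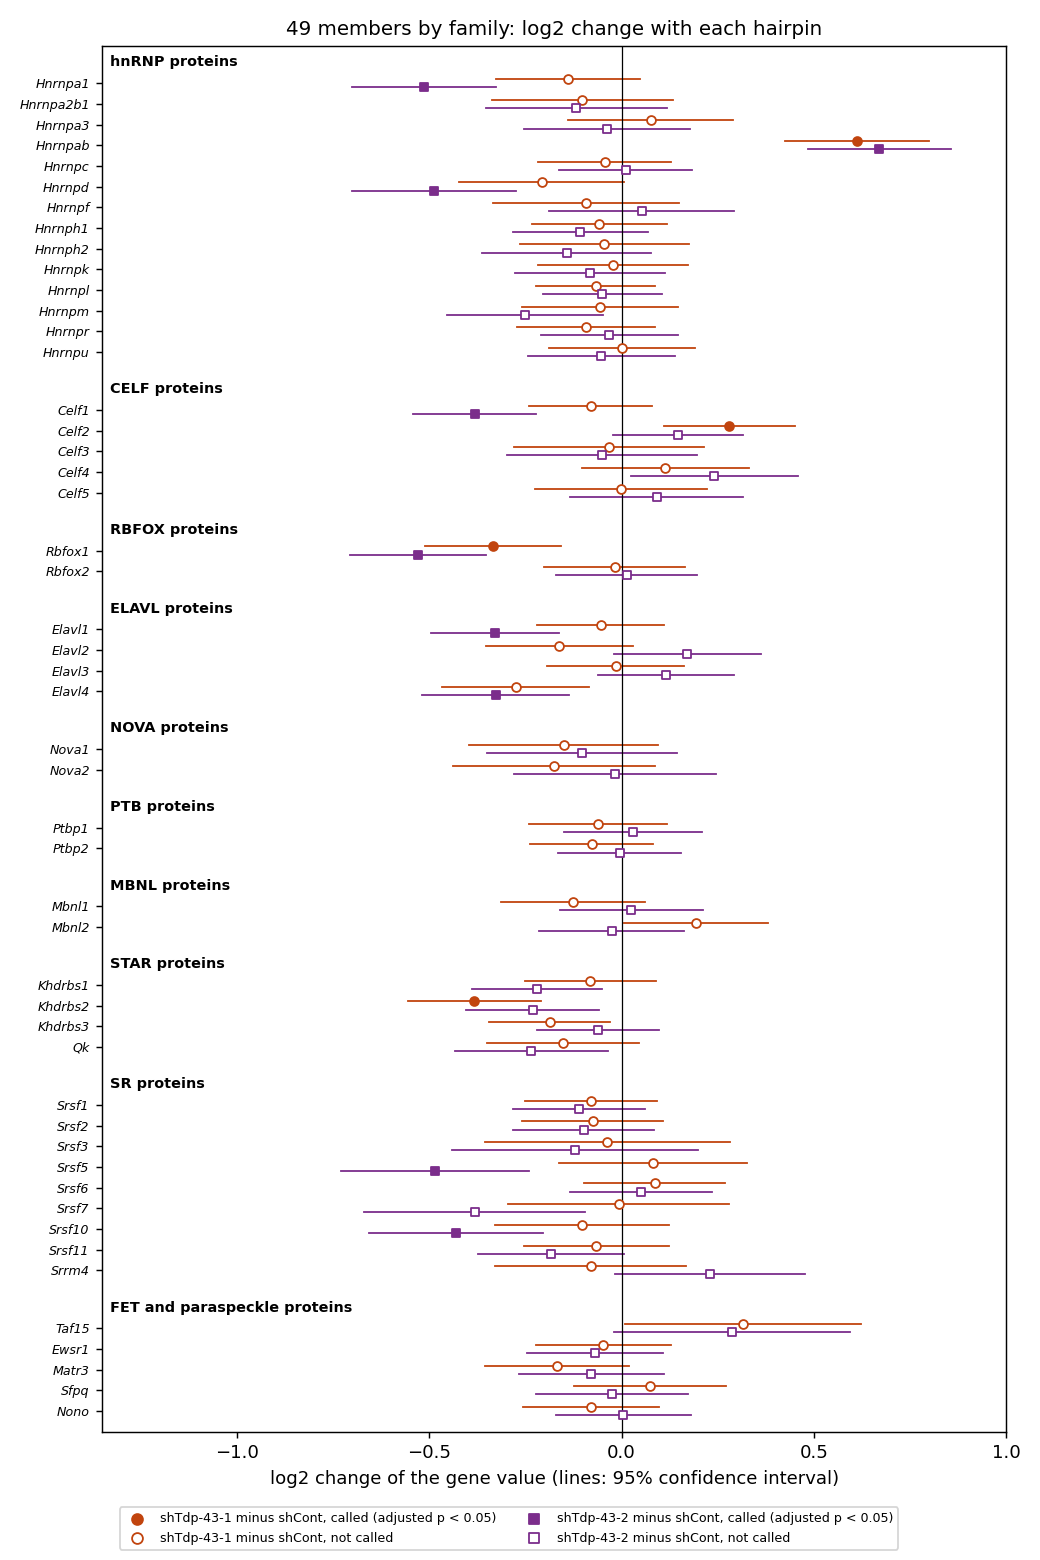
Log2 change of the 49 measured members (x axis) with shTdp-43-1 (circles) and shTdp-43-2 (squares) relative to shCont, by family, with 95% confidence intervals; filled symbols are called. Hnrnpab stands to the right of all other members with both hairpins, at 0.61 and 0.67, and most other intervals include 0.

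Some cell type markers were called, where 11.1% of all genes were called with shTdp-43-1 and 21.9% with shTdp-43-2. The shares were 22.2% and 44.4% in turn for fibroblast and pericyte markers, and 33.3% and 44.4% for inhibitory neuron markers. They were 10% and 30% for astrocyte, 25% and 25% for pan-neuronal, and 16.7% and 16.7% for cortical projection neuron markers. Neural progenitor and cycling markers had 11.1% and 22.2%, and endothelial markers 0% and 20%. With shTdp-43-2, the shares from pan-neuronal on were near that of all genes. In the fibroblast and pericyte list, 2 of 9 tested genes fell with shTdp-43-1 and 4 of 9 with shTdp-43-2, and the summed linear level of the list was 3874 to 4000 in shTdp-43-1 and 3111 to 3339 in shTdp-43-2, against 4605 to 4615 in shCont. Dcn and Fn1, matrix genes, fell with shTdp-43-2, with log2 changes of -1.15 and -0.87. Of the 9 genes, 5 were below 0 and 4 above with each hairpin, and the list's median came to -0.04 for shTdp-43-1 and -0.01 for shTdp-43-2. Of 10 astrocyte markers, 1 fell with shTdp-43-1 and 3 with shTdp-43-2, with sums of 15692 to 16849 in shTdp-43-1 and 14372 to 15384.5 in shTdp-43-2, against 15871 to 19284.5 in shCont. The water channel gene Aqp4 changed by -0.43 and -0.59. Of 8 pan-neuronal markers, the neurofilament genes Nefl and Nefm fell with both hairpins and the other 6 were not called, with sums of 30891 to 32740 in shTdp-43-1 and 31091 to 33634.5 in shTdp-43-2, against 31944 to 34410 in shCont. Of 6 cortical projection neuron markers 1 fell with each hairpin, with sums of 8625 to 9962 in shTdp-43-1 and 9097 to 9981 in shTdp-43-2, against 10264 to 11163 in shCont. Of 9 inhibitory neuron markers 2 rose and 1 fell with shTdp-43-1, and 1 rose and 3 fell with shTdp-43-2. Their sums were 11001 to 13065 in shTdp-43-1 and 10268 to 10509 in shTdp-43-2, against 11027 to 12755 in shCont. Sst, the gene of somatostatin, fell with shTdp-43-2 (-1.30) and had -0.16 with shTdp-43-1, and Gad2, a GABA-making enzyme gene, rose with both (0.69 and 0.65). Of 9 neural progenitor and cycling markers, 1 fell with shTdp-43-1, and 1 rose and 1 fell with shTdp-43-2, with sums of 6716 to 7038 in shTdp-43-1 and 7284 to 7550 in shTdp-43-2, against 7179 to 7641 in shCont. Nes, the gene of nestin, had -0.19 with shTdp-43-1 and rose by 0.60 with shTdp-43-2, and Eomes fell with both (-0.33 and -0.41). Of 5 endothelial markers, 1 rose with shTdp-43-2. None of the 10 microglia and 8 oligodendrocyte lineage markers was called with either hairpin by limma (with shTdp-43-1, 0 and 1 had an unadjusted p under 0.05, and with shTdp-43-2 none). No marker of these lists was at 0. The part of such shifts in the results below was not tested, and in a mixed culture fewer cells of a type and less RNA per cell cannot be told apart.

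Hnrnpab, an hnRNP related to Hnrnpd that binds mRNA and takes part in its transport in neurons, rose with both hairpins. Its log2 values were 11.71, 11.66 and 11.77 in shTdp-43-1 and 11.78, 11.80 and 11.74 in shTdp-43-2, against 10.97, 11.09 and 11.25 in shCont. All 6 hairpin arrays lay above all control arrays, and the 2 hairpin groups overlapped. The log2 change was 0.61 ± 0.0854 with shTdp-43-1 (SE, n = 3 arrays per group; limma adjusted p = 0.00141), while shTdp-43-2 gave 0.67 ± 0.0854 (adjusted p = 0.000269), or 153% and 159% of the shCont level. Nearly all of its probe sets shared the increase. With either hairpin 15 of 16 were higher, by up to 0.97 with shTdp-43-1 and 1.08 with shTdp-43-2. The remaining one, the dimmest, changed by -0.00 and -0.12. Both calls were kept under all 20 settings tried.

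Hnrnpa1, which represses splice sites and exports mRNA, had log2 values of 11.00, 11.22 and 11.18 in shTdp-43-1 and of 10.77, 10.83 and 10.67 in shTdp-43-2, against 11.24, 11.33 and 11.25 in shCont. Both hairpin groups lay wholly below the controls, shTdp-43-2 further than shTdp-43-1. It fell with shTdp-43-2 to 70.0% of the shCont level (log2 change -0.51 ± 0.0856 SE; limma adjusted p = 0.00141). The shTdp-43-1 change was -0.14 (adjusted p = 0.311). All 7 of its probe sets were lower with each hairpin. Hnrnpa1 has many near-identical processed copies, and other probe sets at the gene name further genes and were not used, so its value is uncertain.

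Hnrnpd, known as AUF1, binds AU-rich elements and promotes the decay of mRNAs that carry them. Its log2 values were 10.92, 10.71 and 10.87 in shTdp-43-1 and 10.56, 10.72 and 10.39 in shTdp-43-2, against 11.01, 11.11 and 11.02 in shCont. The hairpin groups overlapped each other and lay below the controls. The gene value fell with shTdp-43-2 to 71.3% (log2 change -0.49 ± 0.0977 SE; limma adjusted p = 0.00431). The shTdp-43-1 change was -0.21 (adjusted p = 0.193). With the median in place of the mean over its 19 probe sets, the change with shTdp-43-2 was -0.20 (adjusted p = 0.353). Here and below, this is the median of the probe set levels on each array, so its change is not the median of their changes.

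The other 11 hnRNP genes, among them Hnrnpc, Hnrnpk, Hnrnpl and Hnrnpu, were not called with either hairpin. Their log2 changes ran from -0.10 for Hnrnpa2b1 to 0.08 for Hnrnpa3 with shTdp-43-1 and from -0.25 for Hnrnpm to 0.05 for Hnrnpf with shTdp-43-2. Hnrnpa2b1, whose protein resembles that of Hnrnpa1 and which also binds Tdp-43, had changes of -0.10 ± 0.107 and -0.12 ± 0.107 (SE).

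Among the CELF genes, whose proteins bind GU-rich RNA as Tdp-43 does, Celf1 fell with shTdp-43-2 and Celf2 rose with shTdp-43-1. Celf1, a regulator of splicing and of mRNA decay, had log2 values of 10.55, 10.51 and 10.57 in shTdp-43-1 and of 10.24, 10.26 and 10.22 in shTdp-43-2, against 10.58, 10.59 and 10.70 in shCont. The shTdp-43-2 arrays stood apart below both other groups. Celf1 fell with shTdp-43-2 (a log2 change of -0.38 ± 0.0730 SE; limma adjusted p = 0.00328), with 26 of its 31 probe sets lower and a change of -0.57 in their median, and the change with shTdp-43-1 was -0.08 (adjusted p = 0.490).

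Celf2 had log2 values of 11.07, 11.04 and 11.10 in shTdp-43-1 and of 10.93, 11.03 and 10.85 in shTdp-43-2, against 10.73, 10.79 and 10.84 in shCont. The groups did not overlap, with shCont lowest and shTdp-43-1 highest. It rose with shTdp-43-1 to 121% (log2 change 0.28 ± 0.0776 SE; limma adjusted p = 0.0395), and the change with shTdp-43-2 was 0.15 (adjusted p = 0.214). Leaving out 1 array left an adjusted p of 0.142 without shCont replicate 1, 0.110 without shCont replicate 2, 0.0683 without shCont replicate 3, 0.0731, 0.0877 and 0.115 without shTdp-43-1 replicates 1, 2 and 3, and 0.0545 without shTdp-43-2 replicate 1. Its change with shTdp-43-2 was called when arrays were centred (0.23) and when the median level over probe sets was taken (0.82), which also gave 0.82 with shTdp-43-1. That value is not a typical probe set change: with shTdp-43-2 the 46 probe sets ran from -0.89 to 0.91, with 13 below 0. The shTdp-43-1 call was lost when dimmer probe sets were let in (adjusted p = 0.0625). Celf3, Celf4 and Celf5, which are expressed mostly in neurons, were not called, with changes from -0.03 to 0.11 with shTdp-43-1 and from -0.05 to 0.24 with shTdp-43-2.

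Rbfox1, which binds GCAUG and sets neuronal exons, fell with both hairpins. Its log2 values were 10.60, 10.58 and 10.47 in shTdp-43-1 and 10.30, 10.42 and 10.34 in shTdp-43-2, against 10.98, 10.86 and 10.81 in shCont. The groups did not overlap, with shTdp-43-2 lowest. The log2 change was -0.33 ± 0.0809 with shTdp-43-1 (SE; limma adjusted p = 0.0230), while shTdp-43-2 gave -0.53 ± 0.0809 (adjusted p = 0.000872), or 79.3% and 69.3% of the shCont level. Of its 28 probe sets, 25 and 27 were lower. The shTdp-43-1 call was lost without shTdp-43-1 replicate 2 (adjusted p = 0.0582) or 3 (0.0872) and without shCont replicate 1 (0.102) or 2 (0.0672), and with the median over probe sets (-0.33, adjusted p = 0.128). The shTdp-43-2 call was kept under all 20 settings. Its close relative Rbfox2, with changes of -0.02 ± 0.0837 and 0.01 ± 0.0837 (SE), was not called.

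The start regions of Hnrnpab and Rbfox1, the members called with both hairpins, and of Hnrnpd, which holds 3 of the 6 probe sets with changed usage described below, are shown to give the sequence where transcription of each begins. They are RefSeq windows from 250 bases before to 50 after a gene start in GRCm38.p6, written 5′ to 3′ on the gene's strand. Capitals mark matches on either strand to 5 strings: the CCAAT box (CCAAT), the GC box (GGGCGG), an ETS string (CCGGAAG), a YY1 string (AANATGG) and a TATA string (TATAAA). None of the strings contains another.
Hnrnpab, chr11:51606832-51607131, minus strand: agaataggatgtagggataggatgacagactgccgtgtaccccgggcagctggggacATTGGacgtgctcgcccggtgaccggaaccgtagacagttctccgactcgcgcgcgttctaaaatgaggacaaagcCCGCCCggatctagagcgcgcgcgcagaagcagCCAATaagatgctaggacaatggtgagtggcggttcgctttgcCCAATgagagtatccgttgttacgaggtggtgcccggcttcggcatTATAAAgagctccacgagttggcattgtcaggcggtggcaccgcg
Rbfox1, chr16:5884543-5884842, plus strand: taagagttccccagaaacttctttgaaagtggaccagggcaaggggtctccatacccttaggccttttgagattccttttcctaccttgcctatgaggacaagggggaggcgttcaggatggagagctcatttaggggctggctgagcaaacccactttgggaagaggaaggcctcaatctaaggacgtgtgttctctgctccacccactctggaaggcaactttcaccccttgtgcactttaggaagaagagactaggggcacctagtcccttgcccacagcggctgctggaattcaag
Rbfox1, chr16:7069585-7069884, plus strand: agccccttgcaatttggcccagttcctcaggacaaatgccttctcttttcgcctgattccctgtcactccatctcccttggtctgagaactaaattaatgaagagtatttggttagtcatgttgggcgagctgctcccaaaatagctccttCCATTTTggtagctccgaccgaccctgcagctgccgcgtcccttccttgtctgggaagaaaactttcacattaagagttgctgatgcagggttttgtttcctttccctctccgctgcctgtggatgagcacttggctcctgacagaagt
Hnrnpd, chr5:99978889-99979188, minus strand: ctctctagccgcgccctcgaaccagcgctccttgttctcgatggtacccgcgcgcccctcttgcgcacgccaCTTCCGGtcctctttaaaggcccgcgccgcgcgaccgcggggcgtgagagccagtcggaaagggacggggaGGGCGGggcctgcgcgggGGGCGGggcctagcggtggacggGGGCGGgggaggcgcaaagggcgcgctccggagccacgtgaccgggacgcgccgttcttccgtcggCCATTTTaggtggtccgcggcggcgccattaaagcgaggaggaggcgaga
The Hnrnpab window holds 3 CCAAT strings, 1 GC box, a TATA string and 28 CpG dinucleotides. The Hnrnpd window holds 3 GC boxes, 1 ETS string, 1 YY1 string and 45 CpG. The Rbfox1 gene has more than one start, and the windows shown hold 3 and 7 CpG and, in the second, 1 YY1 string. Windows were found for 45 members, 79 in all, and 54.4% of them held a CCAAT string and 60.8% a GC box, against 37.4% and 35.7% of the 32851 windows of all genes. The shares for the ETS, YY1 and TATA strings were 10.1%, 16.5% and 11.4% in the member windows, against 8.86%, 16.1% and 13.6% in all windows. The median CpG count was 23 in member windows and 7 in all windows, and the median GC content was 61.0% and 52.7%.

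The ELAVL proteins bind AU- and U-rich RNA. Elavl1 (HuR), which is made in most cells and stabilises mRNA, had log2 values of 10.76, 10.67 and 10.76 in shTdp-43-1 and of 10.49, 10.49 and 10.38 in shTdp-43-2, against 10.72, 10.79 and 10.84 in shCont. Only the shTdp-43-2 group lay apart, below the controls. Elavl1 fell with shTdp-43-2 to 79.6% (log2 change -0.33 ± 0.0756 SE; limma adjusted p = 0.00903), and the change with shTdp-43-1 was -0.05 (adjusted p = 0.665). The call was lost when dimmer probe sets were let in (log2 change -0.25, adjusted p = 0.0651).

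Elavl4 (HuD), a neuronal member that supports axon growth, had log2 values of 10.36, 10.16 and 10.10 in shTdp-43-1 and of 10.15, 10.17 and 10.13 in shTdp-43-2, against 10.58, 10.45 and 10.41 in shCont. Both hairpin groups lay below the controls and overlapped each other. It fell with shTdp-43-2 to 79.7% (log2 change -0.33 ± 0.0874 SE; limma adjusted p = 0.0196), a call lost without shTdp-43-2 replicate 1 (adjusted p = 0.0539) or shCont replicate 1 (0.0871). With shTdp-43-1 the change was -0.27 (adjusted p = 0.0666), and it was called in 5 of 20 settings. These were without shTdp-43-1 replicate 1 (0.0303), the 25th percentile as filter (0.0264), no filter (0.0286), the replicate block (0.0429) and the intensity trend (0.0402). Elavl3, also neuronal, had changes of -0.02 ± 0.0810 and 0.12 ± 0.0810 (SE) and was not called.

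Elavl2 was called in the comparison of the hairpins with each other and not against shCont. Its log2 values were 10.41, 10.33 and 10.40 in shTdp-43-1 and 10.81, 10.79 and 10.56 in shTdp-43-2, against 10.56, 10.60 and 10.47 in shCont. The shTdp-43-1 arrays were lowest and the shTdp-43-2 arrays overlapped the controls. With arrays centred, its change with shTdp-43-2 was called (0.25, limma adjusted p = 0.0400).

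Khdrbs2, a STAR protein of brain that sets alternative exons of the neurexin genes, fell with shTdp-43-1. Its log2 values were 8.960, 8.998 and 8.999 in shTdp-43-1 and 9.18, 9.21 and 9.02 in shTdp-43-2, against 9.34, 9.33 and 9.43 in shCont. The groups did not overlap, with shTdp-43-1 lowest. The log2 change was -0.38 ± 0.0791 with shTdp-43-1 (SE; limma adjusted p = 0.0114), kept under all 20 settings, and -0.23 ± 0.0791 with shTdp-43-2 (adjusted p = 0.0578), where the median over probe sets was called (-0.35, adjusted p = 0.0339). All 13 probe sets were lower with shTdp-43-1 and 12 with shTdp-43-2. The other STAR genes were not called: the changes were -0.08 and -0.22 for Khdrbs1 (Sam68), -0.19 and -0.06 for Khdrbs3, and -0.15 and -0.23 for Qk, which controls myelin and glial splicing, with shTdp-43-1 and shTdp-43-2 in turn.

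Of the 9 genes listed with the SR proteins, Srsf5 and Srsf10 fell with shTdp-43-2. With shTdp-43-1, limma called 0 of the 9, and 0 had an unadjusted p under 0.05. Srsf5 had log2 values of 9.44, 9.61 and 9.72 in shTdp-43-1 and of 8.86, 9.17 and 9.03 in shTdp-43-2, against 9.39, 9.45 and 9.68 in shCont. The shTdp-43-1 and shCont groups overlapped and the shTdp-43-2 group lay below both. It fell with shTdp-43-2 to 71.4% (log2 change -0.49 ± 0.112 SE; limma adjusted p = 0.00923), with all 24 probe sets lower, and the change with shTdp-43-1 was 0.08 (adjusted p = 0.655).

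Srsf10, which turns from activator to general splicing repressor when dephosphorylated, had log2 values of 8.91, 9.01 and 9.03 in shTdp-43-1 and of 8.54, 8.86 and 8.56 in shTdp-43-2, against 9.05, 8.98 and 9.23 in shCont. The shTdp-43-2 group lay below both others, which overlapped. The gene value fell with shTdp-43-2 to 74.2% (log2 change -0.43 ± 0.104 SE; limma adjusted p = 0.0116), with 18 probe sets lower and 12 higher. The call was lost when only brighter probe sets were kept (change -0.17, adjusted p = 0.234) and without shCont replicate 3 (adjusted p = 0.0514). The median level over probe sets gave -0.92.

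The other SR genes were not called. Srsf7 had the widest uncalled change among the members, -0.38 ± 0.131 with shTdp-43-2 (SE; limma adjusted p = 0.0583). The shTdp-43-1 value was -0.01. Srsf1, Srsf2, Srsf3, Srsf6 and Srsf11 ran from -0.08 to 0.09 with shTdp-43-1 and from -0.18 to 0.05 with shTdp-43-2. Srrm4, which directs neuronal microexons, had changes of -0.08 and 0.23.

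The remaining families had no called member with either hairpin. The changes with shTdp-43-1 and shTdp-43-2 were -0.15 and -0.10 for Nova1, -0.18 and -0.02 for Nova2, -0.06 and 0.03 for Ptbp1, and -0.08 and -0.01 for Ptbp2, the PTB form of neurons. They were -0.13 and 0.03 for Mbnl1 and 0.19 and -0.03 for Mbnl2. Among the FET and paraspeckle genes, Taf15 had 0.31 ± 0.140 and 0.29 ± 0.140 (SE; limma adjusted p = 0.172 and 0.178), and Ewsr1, Matr3, Sfpq and Nono ran from -0.17 to 0.07 and from -0.08 to 0.01. Over all families, the 95% interval lay within 0.5 of 0 on the log2 scale for 44 of 45 uncalled members with shTdp-43-1 and for 38 of 40 with shTdp-43-2.

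**Figure D2:**
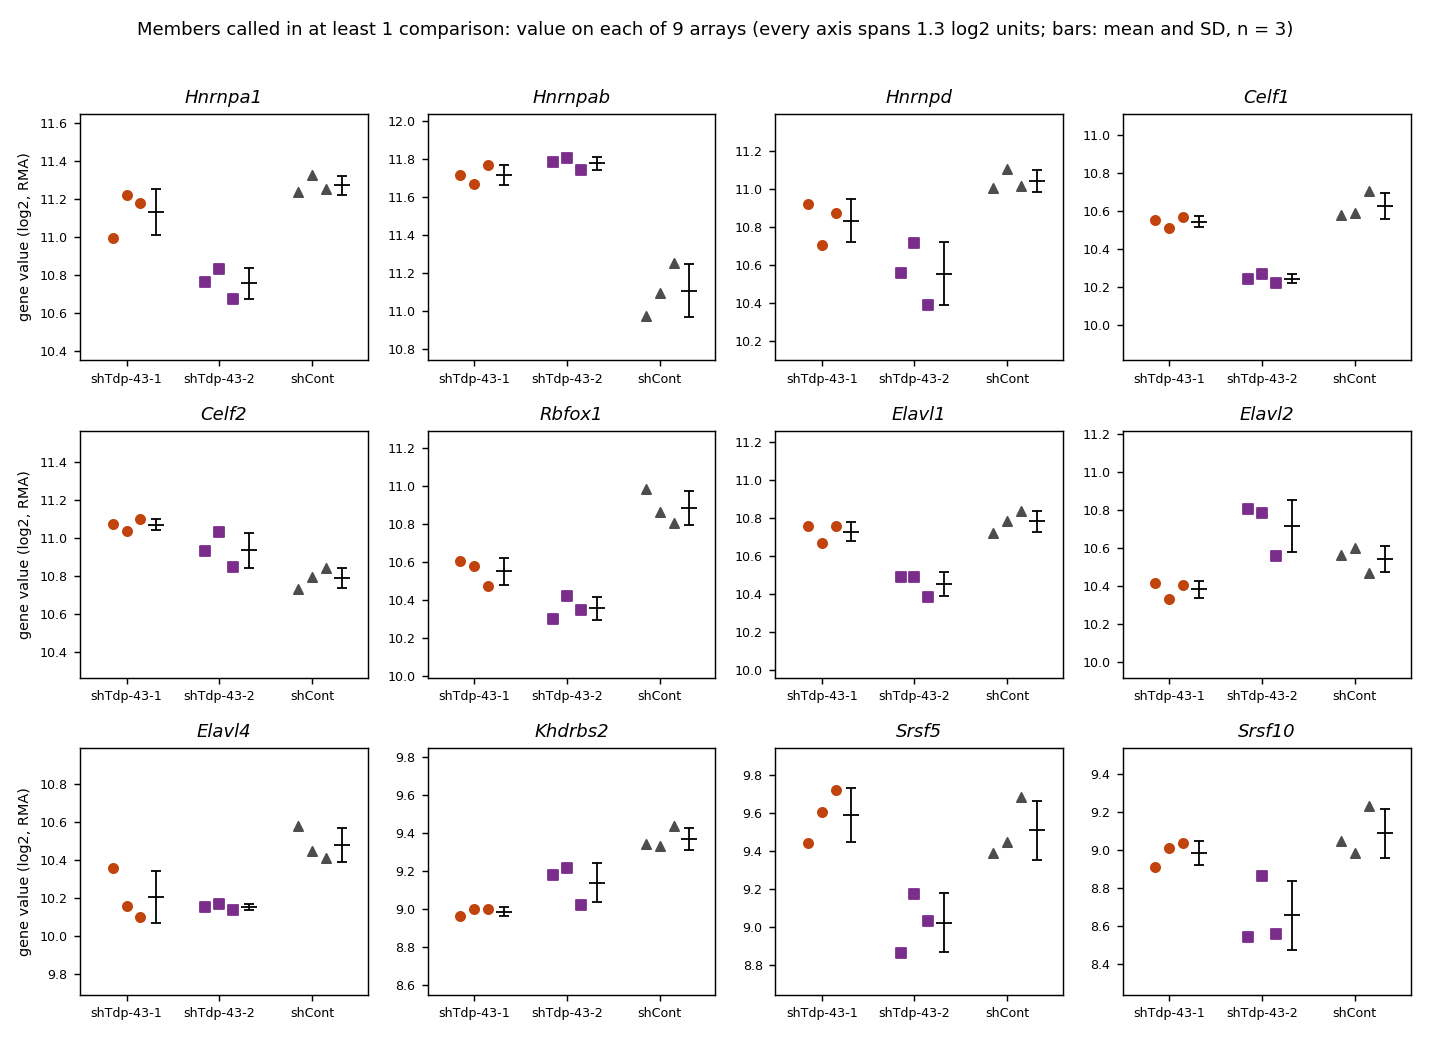
Gene value (log2, y axis, the same span in every panel) of the 12 members called in at least 1 comparison on each array of shTdp-43-1 (circles), shTdp-43-2 (squares) and shCont (triangles), with mean and SD. For Hnrnpab all 6 hairpin arrays, from 11.66 to 11.80, lie above the controls, and for Srsf5 the shTdp-43-2 arrays alone lie below.

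Set against each other, the hairpins differed for 5 of 49 members (10.2%), where 11.5% of all genes were called, 4.22% higher and 7.31% lower in shTdp-43-2. Relative to shTdp-43-1, shTdp-43-2 had lower Hnrnpa1 (-0.38 ± 0.0856 SE; limma adjusted p = 0.0156), Celf1 (-0.30 ± 0.0730; 0.0209), Elavl1 (-0.28 ± 0.0756; 0.0370) and Srsf5 (-0.57 ± 0.112; 0.00779), and higher Elavl2 (0.33 ± 0.0872; 0.0298). Tardbp itself was at like levels with both, with a difference of 0.03 (95% interval -0.38 to 0.43). Leaving out 1 array left as few as 1 call, without shTdp-43-1 replicate 2 or 3 or shTdp-43-2 replicate 1.

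Other lists place these values among other splicing genes. Of 42 other splicing regulators tested, 1 rose and 3 fell with shTdp-43-1, and 1 rose and 4 fell with shTdp-43-2. Ptbp3, a PTB paralogue, changed by -0.54 (limma adjusted p = 0.00200) and -0.31 (0.0145), and Hnrnpa0 by -0.27 (0.0360) and -0.46 (0.00115). Raver2, a PTB partner, was called with shTdp-43-1 alone at 0.41 (0.0143), and Pspc1, a paraspeckle gene, with shTdp-43-2 alone at -0.40 (0.0248). Of 41 core spliceosome genes, 3 fell with shTdp-43-1, and 9 fell and 1 rose with shTdp-43-2. The U2 protein gene Snrpa1 changed by -0.63 (0.00117) and -0.61 (0.000471), the helicase gene Ddx46 by -0.32 (0.0382) and -0.44 (0.00473), and U2af1, which reads the 3′ splice site, by -0.14 (0.262) and -0.42 (0.00295). Snrpn, the neuronal SmB-like protein gene, rose by 0.64 with shTdp-43-2 (0.00398), with 0.20 with shTdp-43-1 (0.322). The shares called, 9.52% and 11.9% for other regulators and 7.32% and 24.4% for the core genes, lie on either side of those of the members. Leaving out 1 array gave 1 to 5 calls with shTdp-43-1 and 3 to 6 with shTdp-43-2 for other regulators, and 1 to 3 and 4 to 11 for the core genes.

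Within some members, some of the probe sets changed more than the rest of the gene, by calls that depended on the test and on single arrays. Usage is the log2 value of a probe set minus the mean of the other probe sets of its gene, so a usage change is what remains after the change of the gene. The members were brighter than most genes, with array medians of 10.49 to 10.70 against 8.75 to 8.94. The 49 members held 1180 kept probe sets, where the median gene had 12. The shares below were not adjusted for either difference, so they do not show enrichment among members. With limma's diffSplice, which gives all probe sets of a gene one spread, 11 of 1180 member probe sets in 8 members were called with shTdp-43-1 (0.932%, against 0.494% of all 248701 probe sets), and 34 in 17 members with shTdp-43-2 (2.88%, against 1.24%). Probe sets of a gene vary unequally, however, and with each probe set's own spread, added after seeing the data, limma called 0 member probe sets with shTdp-43-1 (0%, against 0.00523% of all probe sets; 75 at an unadjusted p under 0.05) and 6 with shTdp-43-2 (0.508%, against 0.151%). These 6, 3 in Hnrnpd and 1 each in Celf2, Srsf1 and Srsf10, all had lower usage, as did 0.0784% of all probe sets, and 5 of them were called by diffSplice too. They are given with their adjusted p by own spread. That count fell to 0 when shTdp-43-1 replicate 2 or 3, shTdp-43-2 replicate 1 or 3 or any shCont replicate was left out. Leaving out shTdp-43-1 replicate 1 left 4, and leaving out shTdp-43-2 replicate 2 left 8.

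In Hnrnpd, probe set 4453898 had log2 values of 8.97, 8.54 and 8.64 in shTdp-43-1 and of 7.42, 8.07 and 7.20 in shTdp-43-2, against 9.55, 9.45 and 9.42 in shCont. Its usage fell by 1.50 ± 0.163 with shTdp-43-2 (SE; adjusted p = 0.0223) and changed by -0.58 with shTdp-43-1 (0.370). Probe set 4610656 had 9.69, 9.30 and 9.72 in shTdp-43-1 and 8.26, 8.85 and 7.83 in shTdp-43-2, against 10.09, 10.22 and 10.04 in shCont. Its usage fell by 1.39 with shTdp-43-2 (0.0316), against -0.36 with shTdp-43-1 (0.681). For both, the order of the groups was the same without overlap: shTdp-43-2 lowest and shCont highest. The third, 4890599, had 10.20, 10.34 and 10.29 in shTdp-43-1 and 8.89, 9.40 and 9.13 in shTdp-43-2, against 10.93, 10.64 and 10.82 in shCont, a usage change of -1.23 with shTdp-43-2 (0.0365).

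In Celf2, the gene value was called higher with shTdp-43-1 alone. With shTdp-43-2, 33 of its 46 probe sets were above 0 and 13 below. Probe set 5050243 fell with shTdp-43-2, where the gene change of 0.15 was not called. Its log2 values were 8.004, 7.84 and 8.08 in shTdp-43-1 and 7.16, 7.65 and 7.01 in shTdp-43-2, against 8.07, 8.17 and 8.24 in shCont. Its usage fell by 1.06 with shTdp-43-2 (adjusted p = 0.0325) and changed by -0.48 with shTdp-43-1 (0.369). The shTdp-43-2 arrays lay below all others, and the shTdp-43-1 arrays overlapped the controls.

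Srsf1, a founding SR protein, was not called at the gene level, and its probe set 5415392 had log2 values of 8.52, 8.47 and 8.50 in shTdp-43-1 and of 7.88, 8.46 and 8.15 in shTdp-43-2, against 8.998, 9.09 and 9.11 in shCont. Its usage fell by 0.83 with shTdp-43-2 (adjusted p = 0.0495), and the change was -0.51 with shTdp-43-1 (0.292). Srsf10 probe set 5469308 had 8.93, 8.70 and 8.89 in shTdp-43-1 and 7.55, 7.98 and 7.46 in shTdp-43-2, against 8.998, 8.86 and 9.04 in shCont. Here shTdp-43-1 overlapped the controls, and usage fell by 0.90 with shTdp-43-2 (0.0354). Hnrnpd 4890599, Srsf1 5415392 and Srsf10 5469308 were chosen after their values were seen.

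**Figure D3:**
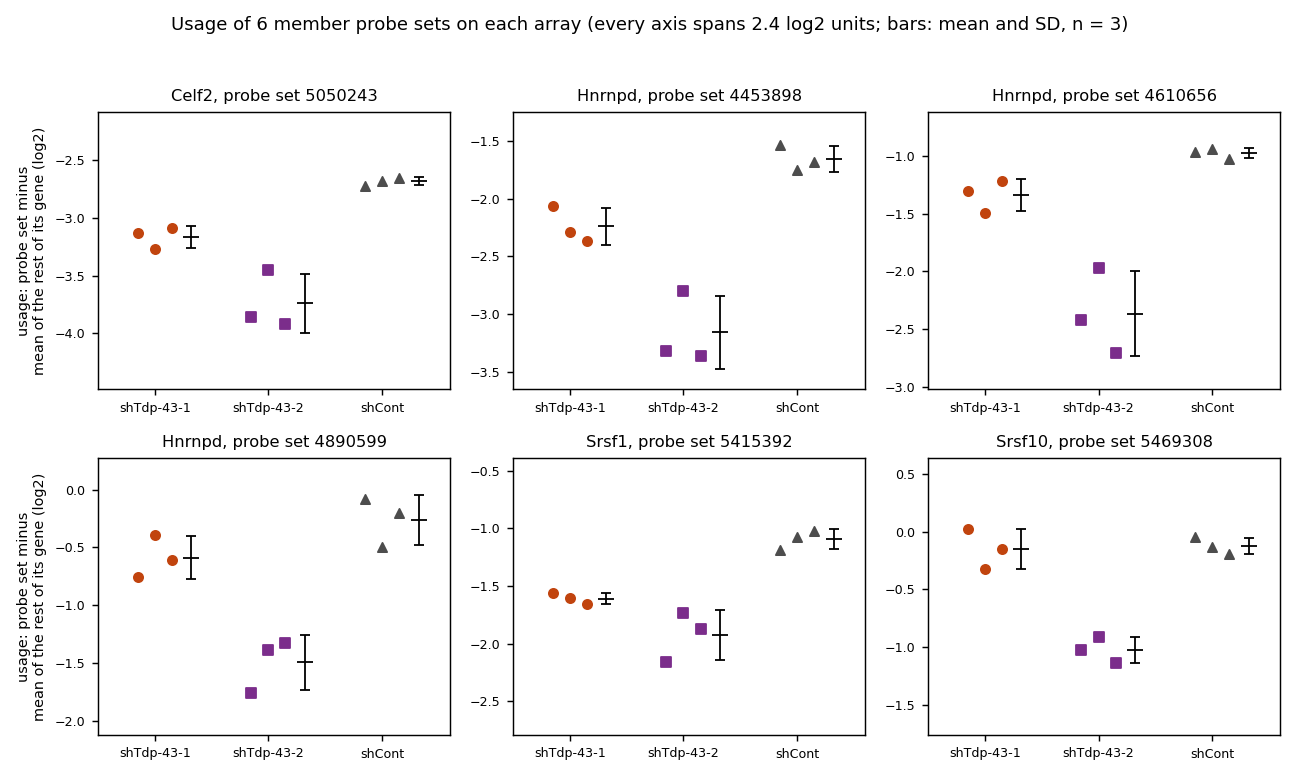
Usage (log2, y axis, the same span in every panel) of the 6 member probe sets called with their own spread, on each array of shTdp-43-1 (circles), shTdp-43-2 (squares) and shCont (triangles), with mean and SD. The 6 were picked because their usage was called lower with shTdp-43-2. That the 3 shTdp-43-2 arrays lie below the 3 shCont arrays in all 6 panels is therefore no separate support.

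The change was uneven among the probe sets of these genes, as described after the values were seen. In Hnrnpd, 6 of 19 probe sets had a log2 change below -0.5 with shTdp-43-2, from -1.91 to -0.69, and the other 13 ran from -0.22 to 0.30. With shTdp-43-1, 5 of the same 6 were below -0.5 and no other. In Srsf10, 15 of 30 probe sets were below -0.5 with shTdp-43-2, from -1.66 to -0.54, and the other 15 ran from -0.39 to 0.43. With shTdp-43-1, 2 were below -0.5, of which 1 was among those 15. In Srsf1, 5 of 23 were below -0.5 with shTdp-43-2, from -1.05 to -0.75, against -0.46 to 0.29 for the other 18.

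Srsf5 differed in form: 9 of its 24 probe sets were below -0.5 and the other 15 were all below 0 as well, from -0.49 to -0.09. In Celf2, 3 of 46 were below -0.5 with shTdp-43-2, and the other 43 ran from -0.46 to 0.91. The probe sets below -0.5 had shCont levels of 8.87 to 11.51 in Hnrnpd and 6.52 to 9.55 in Srsf10, and those of the other probe sets, 9.84 to 13.03 and 6.78 to 12.94, overlapped them. The annotation used here does not say which exon or intron a probe set covers, so which part of each gene these probe sets read was not tested.

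**Figure D4:**
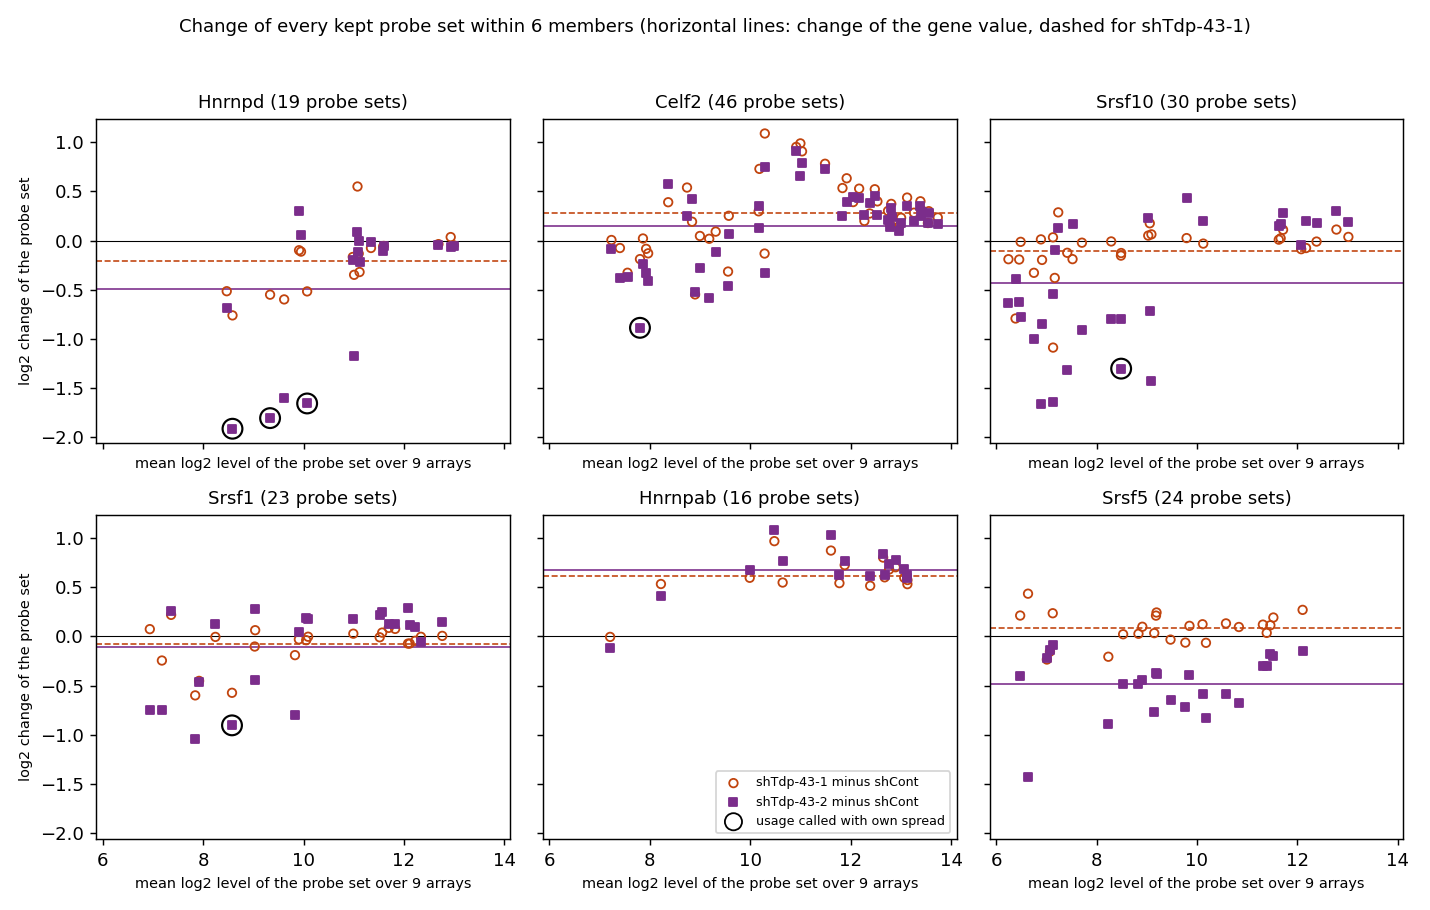
Log2 change of every kept probe set (y axis) against its mean log2 level over all 9 arrays (x axis) in 6 members, for shTdp-43-1 (open circles) and shTdp-43-2 (squares) relative to shCont, with the gene's change as a line and the probe sets called with own spread ringed. In Hnrnpd 6 of 19 and in Srsf10 15 of 30 squares lie below -0.5, while in Hnrnpab all but the dimmest probe set lie above 0 and in Srsf5 all 24 lie below 0 with shTdp-43-2.

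Another 13 probe sets, taken by size of usage change, were called by diffSplice and not with their own spread, and their values are given without a direction being claimed. Elavl4 probe set 5094331 had log2 values of 8.84, 8.04 and 8.25 in shTdp-43-1 and of 9.44, 8.93 and 9.08 in shTdp-43-2, against 9.91, 9.44 and 9.48 in shCont, with a usage change of -1.02 with shTdp-43-1 (diffSplice adjusted p = 0.000151; own spread 0.189). Its shTdp-43-1 arrays lay below all others. Qk probe set 5134580 had 9.11, 9.77 and 9.56 in shTdp-43-1 and 9.75, 9.69 and 9.81 in shTdp-43-2, against 9.29, 9.11 and 9.27 in shCont, a usage change of 0.79 with shTdp-43-2 (0.0154; 0.121). Celf2 probe set 4566280 had 10.96, 10.47 and 10.87 in shTdp-43-1 and 10.12, 10.86 and 10.31 in shTdp-43-2, against 9.53, 9.72 and 9.78 in shCont, with usage changes of 0.83 (0.00951; 0.246) and 0.62. For this Celf2 probe set all 6 hairpin arrays were above the controls.

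Sfpq probe set 5386329 had log2 values of 7.88, 7.44 and 7.67 in shTdp-43-1 and of 8.20, 7.76 and 7.92 in shTdp-43-2, against 7.02, 6.70 and 7.57 in shCont, a usage change of 0.93 with shTdp-43-2 (diffSplice adjusted p = 0.00615; own spread 0.147). Mbnl2 probe set 4419061 had 7.51, 7.90 and 7.95 in shTdp-43-1 and 8.26, 7.76 and 8.03 in shTdp-43-2, against 6.78, 7.12 and 7.67 in shCont, a usage change of 0.90 with shTdp-43-2 (0.00410; 0.186). In both, shTdp-43-2 lay above the controls and shTdp-43-1 overlapped both groups. Elavl1 probe set 4461917 had 7.55, 7.65 and 7.25 in shTdp-43-1 and 7.08, 6.89 and 6.95 in shTdp-43-2, against 6.88, 6.67 and 7.10 in shCont, a usage change of 0.70 with shTdp-43-1 (0.0149; 0.261). Elavl1 probe set 4952575 had 7.85, 7.09 and 7.51 in shTdp-43-1 and 7.90, 7.50 and 6.68 in shTdp-43-2, against 6.75, 7.20 and 7.23 in shCont, a usage change of 0.68 with shTdp-43-2 (0.0115; 0.516). The shTdp-43-1 arrays lay above both other groups for 4461917, and all groups overlapped for 4952575.

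Srsf10 probe set 4492297 had log2 values of 6.15, 7.48 and 7.24 in shTdp-43-1 and of 6.04, 6.91 and 6.24 in shTdp-43-2, against 8.04, 7.74 and 8.36 in shCont, with usage changes of -1.02 (diffSplice adjusted p = 0.0335; own spread 0.398) and -1.26 (0.00104; 0.173). All 6 hairpin arrays lay below the controls. Srsf10 probe set 5331772 had 7.26, 7.69 and 7.41 in shTdp-43-1 and 4.80, 6.60 and 5.95 in shTdp-43-2, against 7.20, 7.38 and 7.75 in shCont, a usage change of -1.27 with shTdp-43-2 (0.000801; 0.212). Srsf5 probe set 4315529 had 6.93, 7.47 and 7.81 in shTdp-43-1 and 4.39, 5.66 and 6.55 in shTdp-43-2, against 6.32, 6.95 and 7.64 in shCont, a usage change of -0.99 with shTdp-43-2 (0.0299; 0.568). In 5331772 and 4315529 the spread within shTdp-43-2 was the widest of the groups.

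Celf1 probe set 4719591 had log2 values of 5.95, 6.99 and 6.62 in shTdp-43-1 and of 5.62, 6.40 and 6.95 in shTdp-43-2, against 4.61, 5.66 and 6.21 in shCont, with usage changes of 1.15 (diffSplice adjusted p = 0.000235; own spread 0.577) and 1.26 (1.08e-05; 0.408). Matr3 probe set 4545704 had 5.27, 6.95 and 6.57 in shTdp-43-1 and 7.34, 7.34 and 6.69 in shTdp-43-2, against 7.61, 7.23 and 7.56 in shCont, a usage change of -1.07 with shTdp-43-1 (0.0104; 0.497). Qk probe set 5150852 had 5.92, 5.59 and 5.98 in shTdp-43-1 and 6.54, 6.45 and 6.93 in shTdp-43-2, against 6.26, 5.45 and 5.68 in shCont, a usage change of 1.12 with shTdp-43-2 (6.68e-05; 0.177). The filter on dim probe sets was a mean of 6.07 over all arrays. Celf1 4719591 had a mean of 5.49 in shCont, under the filter, against 6.52 in shTdp-43-1 and 6.32 in shTdp-43-2. Qk 5150852 had means of 5.80 in shCont and 5.83 in shTdp-43-1, both under it, against 6.64 in shTdp-43-2. Each was thus kept only through the groups where it was higher, so its higher usage cannot be separated from that selection.

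Between the hairpins, diffSplice called 9 of 1180 member probe sets in 6 members (0.763%, against 0.44% of all probe sets), and limma with each probe set's own spread called 0 (0% of all probe sets, and 93 member probe sets at an unadjusted p under 0.05).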

How the data were processed

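RNA was measured on 9 Affymetrix Mouse Exon 1.0 ST arrays, 3 per group. The deposited table holds log2 values of 1256831 probe sets, which the authors made with RMA in Affymetrix Expression Console, per the submitters' processing notes. Those give mm9 as build and no software versions. An array's number limits the precision, not a read depth. GEO's platform annotation gave 318760 probe sets 1 gene symbol, 6684 several and 931387 none; only the first were used, with 4227 symbols updated through RefSeq. Probe sets whose mean over 9 arrays reached the table median (6.07) were kept, and genes with at least 3 were averaged, which left 16770 genes and 248701 probe sets. The limma package (3.58.1, R 4.3.3) fitted all 3 groups in one model (lmFit, eBayes, 6 residual degrees of freedom), with Benjamini-Hochberg adjustment over all genes and a threshold of 0.05. Probe set usage was tested with limma's diffSplice over all kept probe sets. Because diffSplice gives the probe sets of a gene 1 spread, usage was also tested with each probe set's own spread, a choice made after seeing the data. An exact permutation test of 3 against 3 arrays cannot give a p under 0.1, so none is reported. Same-numbered arrays were not taken as pairs. The gene test and both usage tests were also run on simulated data with independent noise for each probe set and array. Deviations of the real arrays correlate, so that run does not show how often calls here are false. The members, gene lists and tests were chosen with earlier results of these data known. Values on every array are given for members called in any comparison and for probe sets called by diffSplice with either hairpin, at most 2 per gene and 8 per direction by size of usage change; of the other lists, at most 4 called genes, and of cell type lists at most 2, are named by size of log2 change. Alternatives were the filter on dim probe sets, array centring, quantile normalization, the median over probe sets, the number of probe sets per gene, only the groups compared, an intensity trend with robust spread, the replicate number as a block, and each array left out. The median was taken over probe set levels on each array, not over their changes. Start windows come from RefSeq, GRCm38.p6.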

Additional observations from a re-analysis of the deposited data

Results flagged for a closer look

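For 14 results the hairpins differed from each other, by limma's test of shTdp-43-2 minus shTdp-43-1. The log2 differences of gene values were -0.38 for Hnrnpa1 (kept in 15 of 20 settings), -0.30 for Celf1 (11), -0.28 for Elavl1 (7), 0.33 for Elavl2 (11) and -0.57 for Srsf5 (19). In Hnrnpa1, Celf1, Elavl1 and Srsf5 the shTdp-43-2 arrays all lay below the shTdp-43-1 arrays, and in Elavl2 all lay above.

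By diffSplice, usage differed between the hairpins by 0.88 in Elavl4 probe set 5094331 and 0.92 in Qk probe set 5150852. The Qk probe set passed the filter on dim probe sets only through its shTdp-43-2 arrays. In Hnrnpd usage differed by -0.92 in 4453898, -1.03 in 4610656 and -0.91 in 4890599. It differed by -0.83 in Srsf1 probe set 4894176, by -1.21 and -1.39 in Srsf10 probe sets 4869503 and 5331772, and by -1.36 in Srsf5 probe set 4315529. With each probe set's own spread, limma called 0 of these 9.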

How the results depend on the processing

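Of 20 called gene results among the named genes, 9 kept their call and direction in all 20 settings: those of Hnrnpab and Tardbp with both hairpins, of Hnrnpa1, Celf1, Rbfox1 and Srsf5 with shTdp-43-2 and of Khdrbs2 with shTdp-43-1. Of 24 probe set results called by diffSplice, 3 did: those of Hnrnpd 4453898 and 4610656 and of Celf2 5050243 with shTdp-43-2. With own spread, these 3 calls were kept in 6, 5 and 4 of 17 settings. The cause of the changes below was not tested. With arrays centred, the median change of the members with shTdp-43-2 was 0.023, and with the median over probe sets that of the hairpin difference was 0.017. Members called between the hairpins numbered 1 with no filter on dim probe sets, 8 with the 75th percentile as filter, 2 with only the groups compared, 3 with the median over probe sets, 3 with at least 1 kept probe set and 1 when both shTdp-43-1 replicate 2 and replicate 3 of shTdp-43-2 were left out. The last setting, added after seeing the data because these arrays deviate together, gave 2 members called with shTdp-43-1, 2 other regulators and 1 core gene; with shTdp-43-2 it gave 3 and 6, and between hairpins 1 and 0. Probe sets called by diffSplice with shTdp-43-1 numbered 4 with the 75th percentile, 17 with only the groups compared and 0 with own spread. With shTdp-43-2 they numbered 21 in the added setting and 6 with own spread, and between the hairpins 3 and 0. Calls by own spread with shTdp-43-2 numbered 1 with the 25th percentile, 0 with no filter, 13 with the 75th percentile, 0 with only the groups compared and 0 in the added setting.

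With the replicate number as a block, members called numbered 5, 10 and 6, against 4, 9 and 5 without it. The block gave 21, 62 and 16 probe sets by diffSplice and 0 by own spread with shTdp-43-2. Deviations of same-numbered arrays correlated from -0.383 to 0.593, over 0.1 in 6 of 9 pairs. The values were 0.593, 0.399 and 0.335 for replicate 1 and 0.152, 0.32 and 0.128 for replicate 3. For replicate 2 they were -0.383, -0.0838 and 0.0406. The highest of any pair was 0.681, for shTdp-43-1 replicate 2 with shTdp-43-2 replicate 3. Whether the numbers pair the arrays is not known and was not tested.

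Leaving out 1 array in turn gave 2 to 4, 8 to 11 and 1 to 5 members called with shTdp-43-1, with shTdp-43-2 and between the hairpins. It gave 2 to 14, 17 to 44 and 3 to 16 probe sets by diffSplice, and 0 to 8 by own spread with shTdp-43-2. The member medians ran from -0.08 to -0.03, from -0.08 to -0.04 and from -0.06 to -0.0036. Other regulators numbered 1 to 5, 3 to 6 and 0 to 2, and core genes 1 to 3, 4 to 11 and 0 to 4.

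Uncalled values also changed sign. Elavl1 with shTdp-43-1 was 0.053 with the 25th percentile and with no filter, and Srsf10 was 0.0070 with the 75th percentile. Usage of Srsf10 probe set 5469308 with shTdp-43-1 was 0.014 after quantile normalization and 0.059 in the added setting, and ran from -0.111 to 0.059 with 1 array left out. Of differences between the hairpins, Tardbp was -0.051 with the median over probe sets and ran from -0.155 to 0.201 with arrays left out, and Elavl4 ran from -0.106 to 0.023. Celf1 probe set 4719591 was -0.196 and Elavl1 probe set 4952575 was -0.124 when tested alone, and with arrays left out they ran from -0.224 to 0.470 and from -0.106 to 0.488. Srsf10 probe set 4492297 was 0.053 in the added setting and ran from -0.615 to 0.053.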
